A study of Mus musculus with 6 samples.

Results

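The 37 enzymes described here are those of pyruvate entry into mitochondria, the TCA (citric acid) cycle, the reactions that feed and drain it, and the pentose phosphate pathway. They were taken by gene symbol as a list of these pathways, and all 37 were among the 15035 genes of the deposited table. Messenger RNA was measured by RNA-seq in mouse leukemia cells of BALB/c bone marrow origin transduced with retroviruses for mutant CSF3R, a cytokine receptor of neutrophil growth, and mutant CEBPA, a myeloid transcription factor. Of 6 libraries, 3 came from cells given 4 nM GSK-LSD1, which inhibits the histone demethylase LSD1, and 3 from cells given the solvent DMSO, both for 48 h in culture with serum. The cells of both groups carried both mutants, so no cells without them were compared. Whether libraries of 1 group stem from separate cultures or animals is not stated in the labels, so the p-values measure only the spread between these libraries, and that spread may be technical.

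The pyruvate dehydrogenase complex turns pyruvate from glycolysis into acetyl-CoA, and the TCA cycle oxidises that acetyl group while reducing NAD and FAD for the respiratory chain. Its intermediates are also withdrawn for lipid, amino acid and nucleotide synthesis and are replaced through pyruvate carboxylase, glutamate and malate. The pentose phosphate pathway runs beside glycolysis: its oxidative branch yields NADPH, which phagocytes use for the oxidative burst and all cells for glutathione reduction and lipid synthesis, and its non-oxidative branch exchanges sugars between ribose phosphate and glycolysis.

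Each value is a read count scaled by the authors with 1 factor per library, and levels of different genes are compared only per kilobase of exon. If the smallest value stands for 1 read, depth was 9572640 to 10199500 reads per library. The labelled cell type was checked against markers. All 11 myeloid markers were detected, with a summed value of 19089.5 to 19605 with GSK-LSD1 and 15569 to 17309 with DMSO. Of these 6 rose, among them Csf3r (log2 fold change 2.03) and Cd34 (2.49), and 3 fell, the granule protease genes Elane (-0.92), Prtn3 (-0.67) and Ctsg (-0.47). Csf3r and Cebpa are also the genes that the retroviruses carried as mutants, so their detection does not check the cell type. Part of their reads may come from the retroviruses, which was not tested. Cebpa had a mean of 4332 with GSK-LSD1 and 4437 with DMSO within the summed values. Mpo, the myeloperoxidase gene, was 8952 ± 164 with GSK-LSD1 and 7390.3 ± 377 with DMSO (SD, n = 3 each, as in all values below), and Kit 28.1 ± 13.4 with GSK-LSD1 and 29.6 ± 4.82 with DMSO. The summed value of 6 monocyte and macrophage markers was 1961 to 2182 with GSK-LSD1 and 509 to 575 with DMSO, and 6 of 6 rose. That of 5 erythroid markers was 42.8 to 65.2 with GSK-LSD1 and 198 to 248.9 with DMSO, and 5 of 5 fell. Among 8 proliferation markers, 1 rose (Mki67, log2 fold change 0.21) and 5 fell. Their summed value was 37768 to 38479.8 with GSK-LSD1 and 40892 to 42766 with DMSO. The 4 T cell markers analysed summed to 108 to 119.7 with GSK-LSD1 and 320.1 to 372 with DMSO, nearly all of it Lck and Themis, and the 2 B cell markers to 1.04 to 5.1 with GSK-LSD1 and 0.995 to 3.91 with DMSO. The T cell gene Cd3d was listed at 0 in all 3 GSK-LSD1 libraries and in 2 of 3 DMSO libraries, and the B cell gene Cd79a in 1 of 3 GSK-LSD1 libraries and in all 3 DMSO libraries. Of 3 stromal and endothelial markers analysed, with a summed value of 4376 to 4502 with GSK-LSD1 and 3563 to 4041 with DMSO, nearly all was Pecam1, which blood cells also express. The part of these marker changes in the results below was not tested, and in bulk RNA fewer cells of a type cannot be told apart from less RNA per cell.

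After 48 h of GSK-LSD1, 8 of 16 TCA cycle enzymes fell slightly and 1 rose, while G6pdx and Pgd, the NADPH-forming enzymes of the pentose phosphate pathway, both rose. Of the 37 enzymes, 6 rose and 16 fell, and 15 did not pass the threshold of 0.05 for the adjusted p of limma, fitted to all 11588 genes with enough reads. Among all genes tested, 20.6% were called higher, 20.5% lower and 41.1% either way. The corresponding shares of the 37 enzymes were 16.2%, 43.2% and 59.5%, so that the share called lower was above that of all genes and the share called higher below it. The members' median log2 fold change was -0.08, beside -0.01 over all genes tested. Log2 fold changes were fitted to log2(value + 1), and fold values are ratios of the group means. The changes were small: no enzyme changed 2-fold, while 5.49% of all genes tested were called with at least a 2-fold difference. The groups did not overlap for 23 of the 37 enzymes, against 49.5% of all genes tested. Of these enzymes 7 lay higher and 16 lower with GSK-LSD1, against 24.7% and 24.8% of all genes tested. The summed value of the 37 enzymes was 68427, 67513 and 67379.6 in the GSK-LSD1 libraries, against 70277, 71369.9 and 71406 in the DMSO libraries, without overlap. Of the 22 enzymes called, 15 kept their call and direction in every alternative in which they were tested. The others were Pdha1, Cs, Idh3b, Sdhd, Fh1, Pgls and Tkt.

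**Figure D1:**
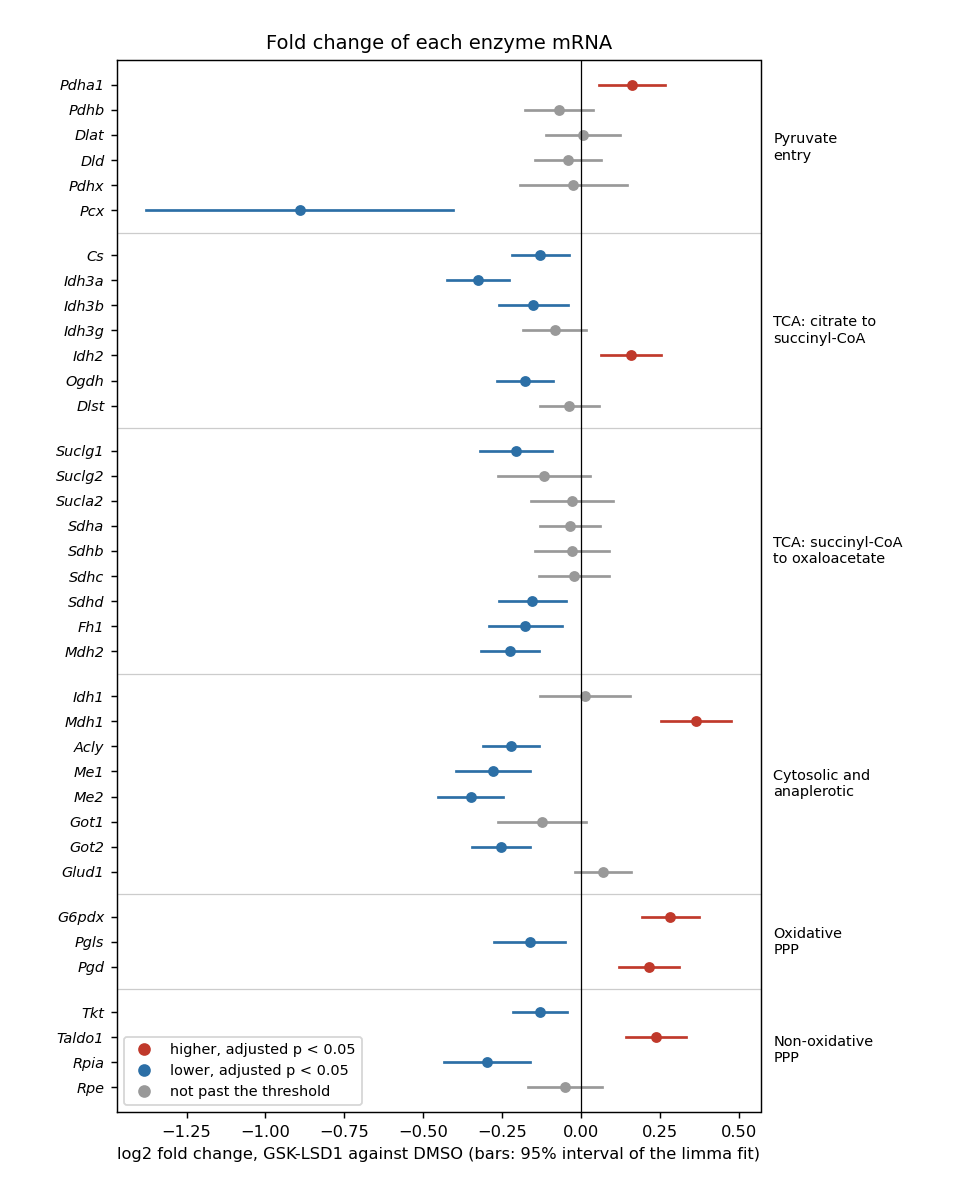
Log2 fold change of each enzyme (GSK-LSD1 against DMSO, horizontal axis) from the limma fit, with its 95% interval as a bar, grouped by pathway step (PPP, pentose phosphate pathway). Red marks the 6 enzymes that rose, blue the 16 that fell and grey the 15 not past the threshold; Pcx lies farthest from 0, at -0.89, with the widest interval.

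**Figure D2:**
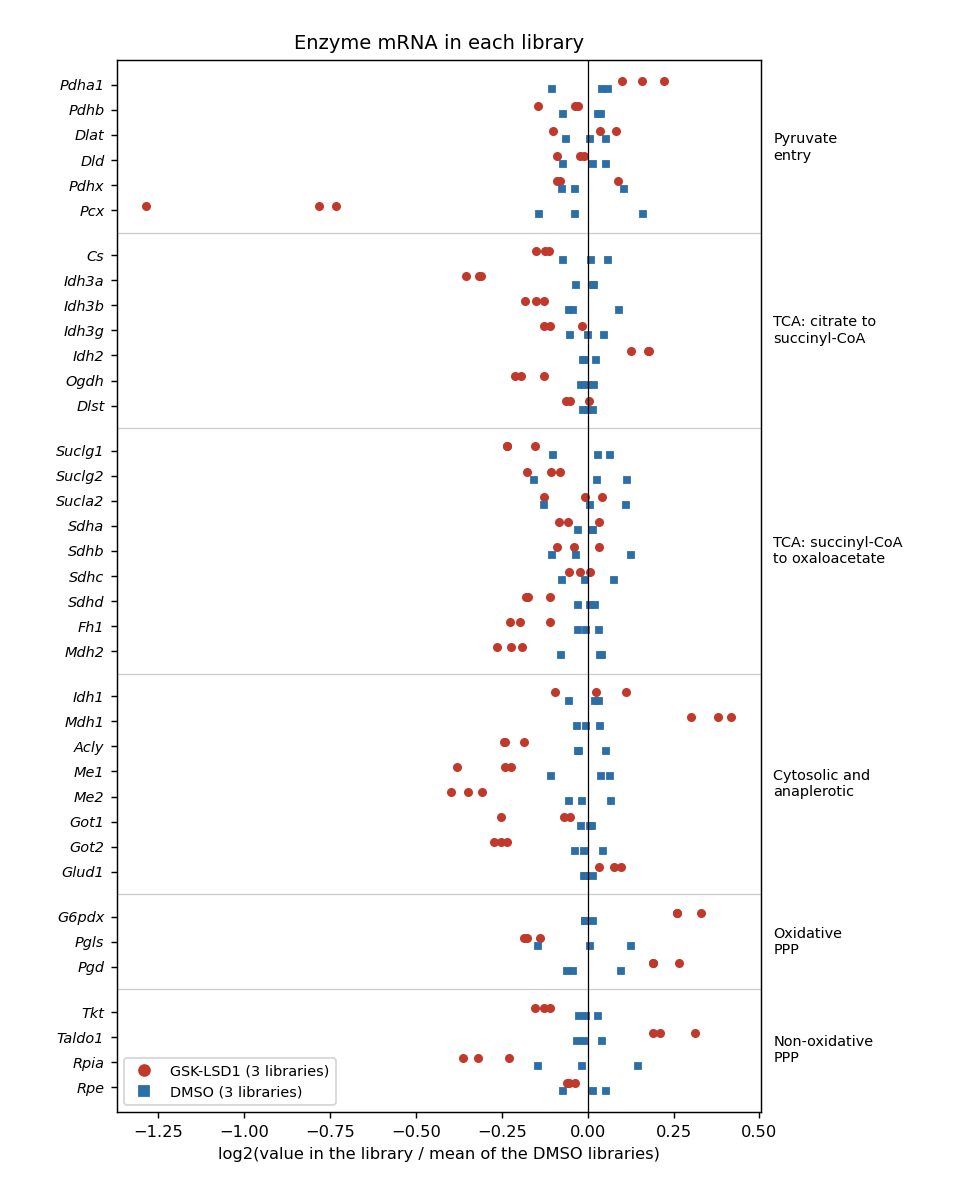
Value of each enzyme in each library on a log2 scale relative to the mean of the DMSO libraries (horizontal axis). Circles are the 3 GSK-LSD1 libraries and squares the 3 DMSO libraries; for Mdh1, G6pdx and Taldo1 all circles lie right of all squares, and for Idh3a, Me2 and Got2 all lie left of them.

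Upstream sequence was available for 34 of the 37 enzymes (not for Idh3a, Sdhc and Me2), as the 250 bases before each RefSeq start (GRCm38.p6), and was searched on both strands for 5 motifs of factors known to act on such genes or in myeloid cells. The antioxidant response element core TGACNNNGC, bound by NRF2, was found upstream of 4 of 34 enzymes (11.8%), against 14.2% of 8920 tested genes with such a sequence. The E-box CACGTG, which MYC binds, was found upstream of 2 enzymes (5.88%), against 896 of 8920 tested genes. The core motif of the factor NRF1 was found upstream of 4 (11.8% against 9.76%) and the ETS core CCGGAAG upstream of 5 (14.7% against 16.6%). The palindrome TTGCGCAA of C/EBP factors was found upstream of 1 enzyme, Rpia, against 0.325% of tested genes. Each share of the enzymes rests on 1 to 5 genes. Of the 6 enzymes that rose, G6pdx held the antioxidant response element core and the others held none of the 5 motifs. The other enzymes with this core, Dlst, Idh3g and Sucla2, did not pass the threshold. Motif letters describe a window and do not show that a factor binds there. Shown first are the 30 bases round the element of G6pdx (chrX:74428919-74428948, minus strand), which rose, and round the palindrome of Rpia (chr6:70792202-70792231, minus strand), which fell. The 250 bases upstream of Sdhd (chr9:50603850-50604099, minus strand), which fell, and of Taldo1 (chr7:141391910-141392159, plus strand), which rose, follow as a pair that differs in motifs: Sdhd holds an NRF1 core and an ETS core and Taldo1 none. The pair does not stand for its groups. The NRF1 core was upstream of 14.3% of the enzymes that fell and 14.3% of those not past the threshold. For the ETS core these shares were 14.3% and 21.4%. A link between motifs and direction of change was not tested. All sequences shown are written 5′ to 3′ on the strand of the gene, with motif letters in capitals. Both short windows lie within the GENCODE model of their gene, which starts farther upstream than the RefSeq start.
G6pdx: gaggcgggtcaGCTCAGTCAaagcacacgc
Rpia: cgcggggcaggTTGCGCAAgcgagcgggtt
Sdhd: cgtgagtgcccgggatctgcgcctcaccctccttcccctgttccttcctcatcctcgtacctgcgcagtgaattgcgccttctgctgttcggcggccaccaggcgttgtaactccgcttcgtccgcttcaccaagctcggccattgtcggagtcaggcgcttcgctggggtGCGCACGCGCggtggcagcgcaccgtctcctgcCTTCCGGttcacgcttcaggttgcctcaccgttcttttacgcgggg
Taldo1: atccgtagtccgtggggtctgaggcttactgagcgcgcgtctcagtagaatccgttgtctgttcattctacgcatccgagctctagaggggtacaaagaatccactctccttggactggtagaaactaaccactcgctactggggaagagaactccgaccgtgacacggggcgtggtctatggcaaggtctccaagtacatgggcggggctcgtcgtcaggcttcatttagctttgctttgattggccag

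Among the 6 genes of pyruvate entry, 1 rose, 1 fell and 4 did not pass. Pcx encodes pyruvate carboxylase, which makes oxaloacetate from pyruvate (chromosome 19, 4510472 to 4621752, GRCm38, the build of all coordinates here). It was 21.4, 20.7 and 14.6 in the GSK-LSD1 libraries, against 32.2, 34.7 and 39.8 in the DMSO libraries. Every GSK-LSD1 library was below every DMSO library, and the fall was 1.88-fold (log2 fold change -0.89, standard error 0.24, adjusted p = 0.00288 by limma). Pcx had the lowest level of all 37 enzymes, 4.45 ± 0.883 per kilobase with GSK-LSD1 and 8.38 ± 0.913 with DMSO. It lies under a mean value of 50 and was therefore not tested where that minimum was set. Pdha1 encodes the catalytic alpha subunit of pyruvate dehydrogenase, the one whose phosphorylation switches the complex off (chromosome X, 160122209 to 160138413). It was 1793, 1868 and 1951 in the GSK-LSD1 libraries, against 1742, 1557 and 1721 in the DMSO libraries. Its groups did not overlap and it rose 1.12-fold (log2 fold change 0.16, standard error 0.0512, adjusted p = 0.0106 by limma). The call of Pdha1 was lost without GSK-LSD1 replicate 3 (0.0938) and without DMSO replicate 2 (0.102), adjusted p by limma in parentheses, within a range of 0.00374 to 0.102 over 13 alternatives. Exons of Pdha1 overlap Map3k15 on the other strand over 21.2% of their bases, and reads of the pair may not be separated, because no strand setting is given in the sources used here. The partner genes of the complex did not pass: the log2 fold change was -0.07 (95% interval -0.18 to 0.04) for the beta subunit gene Pdhb, 0.01 (95% interval -0.11 to 0.12) for the acetyltransferase gene Dlat and -0.04 (95% interval -0.14 to 0.07) for Dld, the lipoamide dehydrogenase shared with other dehydrogenases. It was -0.02 (95% interval -0.19 to 0.15) for Pdhx, which anchors Dld to the core. Reads of Pdhb can be shared with a processed pseudogene that matches most of its transcript.

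From citrate to succinyl-CoA, 1 of 7 genes rose, 4 fell and 2 did not pass, with a median log2 fold change of -0.13. Idh3a, the catalytic subunit of the NAD-dependent isocitrate dehydrogenase of the cycle (chromosome 9, 54586334 to 54604661), was 1355, 1314 and 1351 in the GSK-LSD1 libraries, against 1699, 1640.0 and 1702 in the DMSO libraries. It fell 1.254-fold without overlap (log2 fold change -0.33, standard error 0.0486, adjusted p = 1.1e-06 by limma), the largest fall of the group. Idh3b, a regulatory subunit of the same enzyme, fell (log2 fold change -0.15, adjusted p = 0.0231 by limma), and Idh3g, the other one, had -0.08 (95% interval -0.18 to 0.02) and did not pass. The call of Idh3b was lost without GSK-LSD1 replicate 2 (0.0916), without GSK-LSD1 replicate 3 (0.0641) and without DMSO replicate 2 (0.152), adjusted p by limma in parentheses, within a range of 0.0134 to 0.152 over 13 alternatives. Idh2, the NADP-dependent mitochondrial isocitrate dehydrogenase that makes NADPH (chromosome 7, 80094846 to 80115392), moved the other way: it was 2090.4, 2095 and 2019.5 in the GSK-LSD1 libraries, against 1839, 1835 and 1881 in the DMSO libraries. That is 1.12-fold higher without overlap (log2 fold change 0.16, standard error 0.0464, adjusted p = 0.00559 by limma).

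Ogdh, the first subunit of the 2-oxoglutarate dehydrogenase complex (chromosome 11, 6291633 to 6356642), was 2925, 3098 and 2959 in the GSK-LSD1 libraries, against 3387, 3335 and 3429 in the DMSO libraries. It fell 1.13-fold without overlap (log2 fold change -0.18, standard error 0.0442, adjusted p = 0.00141 by limma). Its partner Dlst, the succinyltransferase of that complex, was 2125 ± 52.6 with GSK-LSD1 and 2179.6 ± 22.4 with DMSO and did not pass (log2 fold change -0.04, 95% interval -0.13 to 0.06). Cs, citrate synthase, which joins acetyl-CoA and oxaloacetate, was 4457 ± 59.2 with GSK-LSD1 and 4874 ± 223 with DMSO, with no overlap between the groups (log2 fold change -0.13, adjusted p = 0.0183 by limma). The call of Cs was lost with quantile scaling (0.133), without GSK-LSD1 replicate 1 (0.0796), without GSK-LSD1 replicate 2 (0.0562) and without DMSO replicate 3 (0.0562), adjusted p by limma in parentheses, within a range of 0.00547 to 0.133 over 13 alternatives. Leaving out 1 of 3 different libraries, or quantile scaling, thus ended this call, and trimmed-mean rescaling did not (adjusted p = 0.0165 by limma).

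From succinyl-CoA to oxaloacetate none of the 9 genes rose, 4 fell and 5 did not pass, and all 9 fitted values were below 0, as were 5928 of all 11588 tested. With 1 library left out, the value of Sucla2, Sdhb and Sdhc could turn positive. Mdh2, the mitochondrial malate dehydrogenase that closes the cycle (chromosome 5, 135778480 to 135790398), was 3456, 3378 and 3287 in the GSK-LSD1 libraries, against 3737, 4042 and 4058 in the DMSO libraries. The fall of 1.17-fold was the largest of the group and came without overlap (log2 fold change -0.23, standard error 0.0452, adjusted p = 0.000113 by limma). Suclg1, the alpha subunit common to both forms of succinyl-CoA synthetase (chromosome 6, 73248382 to 73276911), was 944, 890.2 and 891 in the GSK-LSD1 libraries, against 978, 1097 and 1071 in the DMSO libraries. It fell 1.155-fold, and all GSK-LSD1 libraries were below all DMSO libraries (log2 fold change -0.21, standard error 0.0562, adjusted p = 0.00326 by limma). Its alternative beta subunits did not pass: Suclg2, of the GTP-forming enzyme, had a log2 fold change of -0.12 (95% interval -0.26 to 0.03) and Sucla2, of the ATP-forming enzyme, -0.03 (95% interval -0.16 to 0.10). Without DMSO replicate 1, Suclg2 passed (log2 fold change -0.19, adjusted p = 0.0383 by limma, within a range of 0.0383 to 0.591 over 13 alternatives). Part of the Suclg2 transcript is nearly identical to a processed pseudogene.

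The subunits of succinate dehydrogenase, which is also complex II of the respiratory chain, differed in their calls. Sdhd, a membrane anchor (chromosome 9, 50596357 to 50603812), fell 1.11-fold, with 1112, 1063 and 1059 in the GSK-LSD1 libraries, against 1175, 1218 and 1204 in the DMSO libraries (log2 fold change -0.15, standard error 0.0517, adjusted p = 0.016 by limma). The flavoprotein gene Sdha had a log2 fold change of -0.03 (95% interval -0.13 to 0.06), the iron-sulfur subunit gene Sdhb -0.03 (95% interval -0.15 to 0.09) and the other anchor gene Sdhc -0.02 (95% interval -0.13 to 0.09), none past the threshold. The interval of Sdhd overlaps theirs, and a difference among the subunits was not tested. Fh1, fumarase, was 757 ± 32.4 with GSK-LSD1 and 856 ± 18.6 with DMSO, a fall of 1.13-fold without overlap (log2 fold change -0.18, adjusted p = 0.0121 by limma). The call of Sdhd was lost without GSK-LSD1 replicate 2 (0.0635) and without GSK-LSD1 replicate 3 (0.0763), adjusted p by limma in parentheses, within a range of 0.0145 to 0.0763 over 13 alternatives. The call of Fh1 was lost without GSK-LSD1 replicate 2 (0.0693) and without GSK-LSD1 replicate 3 (0.0533), adjusted p by limma in parentheses, within a range of 0.0108 to 0.0693 over 13 alternatives.

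Among 8 enzymes of the cytosol and of the reactions that feed and drain the cycle, 1 rose, 4 fell and 3 did not pass. Mdh1, the cytosolic malate dehydrogenase of the malate-aspartate shuttle (chromosome 11, 21556787 to 21572367), was 1112, 1052 and 1142 in the GSK-LSD1 libraries, against 876, 851 and 836 in the DMSO libraries. Its rise of 1.29-fold was the largest among all 37 enzymes, and the lowest GSK-LSD1 library lay well above the highest DMSO library (log2 fold change 0.37, standard error 0.0545, adjusted p = 1.13e-06 by limma). Me2, the mitochondrial malic enzyme that turns malate into pyruvate (chromosome 18, 73769903 to 73815449), was 1318, 1274 and 1357 in the GSK-LSD1 libraries, against 1615, 1759.8 and 1658 in the DMSO libraries. It fell 1.27-fold without overlap (log2 fold change -0.35, standard error 0.0504, adjusted p = 6.38e-07 by limma). Me1, the cytosolic malic enzyme, which makes NADPH, fell 1.21-fold, with 941, 853 and 952 in the GSK-LSD1 libraries, against 1139.7, 1031 and 1161 in the DMSO libraries (log2 fold change -0.28, standard error 0.0579, adjusted p = 0.000178 by limma). A stretch of the Me1 transcript matches a processed pseudogene, so that its reads may be shared.

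Got2, the mitochondrial aspartate aminotransferase of the same shuttle (chromosome 8, 95864134 to 95888547), was 2325, 2390.0 and 2360.2 in the GSK-LSD1 libraries, against 2741, 2900.4 and 2788 in the DMSO libraries. It fell 1.19-fold without overlap (log2 fold change -0.25, standard error 0.0451, adjusted p = 2.25e-05 by limma), with the reservation that a pseudogene matches 51.1% of its transcript and a gene model on the other strand 15.0% of its exon bases. Acly, which splits exported citrate to give acetyl-CoA for lipid synthesis and histone acetylation (chromosome 11, 100476353 to 100528000), was 4148, 3991 and 3985 in the GSK-LSD1 libraries, against 4892, 4632 and 4621 in the DMSO libraries. The fall was 1.17-fold, again without overlap (log2 fold change -0.22, standard error 0.0436, adjusted p = 8.32e-05 by limma). The remaining enzymes did not pass. Got1, the cytosolic aminotransferase, had a log2 fold change of -0.12 (95% interval -0.26 to 0.02), Glud1, the glutamate dehydrogenase that feeds 2-oxoglutarate into the cycle, 0.07 (95% interval -0.02 to 0.16) and Idh1, the cytosolic NADP-dependent isocitrate dehydrogenase, 0.01 (95% interval -0.13 to 0.16). The groups did not overlap for Got1 and Glud1, which lay below and above DMSO, and overlapped for Idh1. Part of the Glud1 transcript matches a pseudogene.

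The oxidative branch of the pentose phosphate pathway has 3 enzymes, and its 2 NADPH-forming dehydrogenases rose while the enzyme between them fell. G6pdx encodes glucose-6-phosphate dehydrogenase, the entry step (chromosome X, 74409483 to 74429194). It was 3365, 3206 and 3209 in the GSK-LSD1 libraries, against 2660.2, 2665 and 2707 in the DMSO libraries. The rise was 1.22-fold, and the DMSO libraries lay close together, below all GSK-LSD1 libraries (log2 fold change 0.28, standard error 0.0443, adjusted p = 2.56e-06 by limma). Pgd, 6-phosphogluconate dehydrogenase (chromosome 4, 149149991 to 149166771), was 3748, 3555 and 3554 in the GSK-LSD1 libraries, against 2991, 3332 and 3027 in the DMSO libraries. It rose 1.16-fold without overlap (log2 fold change 0.22, standard error 0.0469, adjusted p = 0.000291 by limma). Pgls, the lactonase between them (chromosome 8, 71592176 to 71601092), was 1298, 1339 and 1307 in the GSK-LSD1 libraries, against 1481, 1610.2 and 1336 in the DMSO libraries. It was called lower (log2 fold change -0.16, adjusted p = 0.0178 by limma), although 1 GSK-LSD1 library exceeded DMSO replicate 3 by a small amount. The call of Pgls was lost with quantile scaling (0.0638), without GSK-LSD1 replicate 1 (0.0691), without GSK-LSD1 replicate 3 (0.0605) and without DMSO replicate 2 (0.186), adjusted p by limma in parentheses, within a range of 0.00044 to 0.186 over 13 alternatives. The summed value of the 3 genes was 8411, 8100.5 and 8070.3 in the GSK-LSD1 libraries and 7133, 7607 and 7069.7 in the DMSO libraries. All GSK-LSD1 sums were above all DMSO sums.

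In the non-oxidative branch 1 of 4 genes rose, 2 fell and 1 did not pass. Taldo1, transaldolase, which moves carbon units between sugar phosphates (chromosome 7, 141392199 to 141402968), was 2533, 2359 and 2330.0 in the GSK-LSD1 libraries, against 2023, 1997 and 2100.4 in the DMSO libraries. It rose 1.18-fold without overlap (log2 fold change 0.24, standard error 0.0474, adjusted p = 0.000101 by limma). Rpia, the isomerase that yields ribose 5-phosphate for nucleotides (chromosome 6, 70765720 to 70792232), was 601, 639.7 and 583 in the GSK-LSD1 libraries, against 678, 740.2 and 830.2 in the DMSO libraries. It fell 1.23-fold, the largest fall of the branch, and its DMSO libraries were more spread than its GSK-LSD1 libraries (log2 fold change -0.30, standard error 0.0664, adjusted p = 0.000417 by limma). Tkt, transketolase (chromosome 14, 30548359 to 30574720), was 9071, 8969 and 8801 in the GSK-LSD1 libraries, against 9754, 9988 and 9621 in the DMSO libraries. It fell 1.09-fold without overlap (log2 fold change -0.13, adjusted p = 0.0123 by limma). The call of Tkt was lost with quantile scaling (0.0657), without GSK-LSD1 replicate 2 (0.0502) and without GSK-LSD1 replicate 3 (0.0839), adjusted p by limma in parentheses, within a range of 0.003 to 0.0839 over 13 alternatives. Rpe, the epimerase that makes xylulose 5-phosphate, did not pass (log2 fold change -0.05, 95% interval -0.17 to 0.07), and a gene on the other strand overlaps part of its exons. The summed value of the branch, of which Tkt is most, was 12688 ± 244 with GSK-LSD1 and 13329.9 ± 112 with DMSO.

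Ratios of paired enzymes were taken within each library, which removes the scaling factor. Of 12 pairs, 6 did not overlap between the groups, beside 49.5% of all single genes tested. The share among ratios of other genes was not computed. With 3 libraries against 3, the smallest p that an exact two-sided permutation test can give is 0.1, so no pair could pass 0.05. Each of these 6 pairs reached that smallest value (adjusted p = 0.2 over the 12 pairs). The ratio of Mdh1 to Mdh2, the malate dehydrogenases of cytosol and mitochondrion, was 0.322, 0.311 and 0.347 in the GSK-LSD1 libraries and 0.234, 0.211 and 0.206 in the DMSO libraries. This is a shift of 0.59 on the log2 scale, the largest of the 12. The NADP-dependent Idh2 relative to the NAD-dependent Idh3a was 1.54, 1.59 and 1.49 in the GSK-LSD1 libraries and 1.08, 1.12 and 1.11 in the DMSO libraries, a log2 shift of 0.49. Tkt relative to Taldo1 was 3.58, 3.8 and 3.78 in the GSK-LSD1 libraries and 4.82, 5 and 4.58 in the DMSO libraries, a log2 shift of -0.37. In each of these 3 pairs the lowest and highest libraries of the groups lie well apart.

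The log2 shift was 0.23 for Pdha1 to Pdhb, -0.25 for Rpia to Rpe and 0.07 for G6pdx to Pgd, and in the last pair the gap between the groups was small: the lowest GSK-LSD1 ratio was 0.898 and the highest DMSO ratio 0.894. For the other pairs the groups overlapped. The shift was -0.15 for Idh1 to Idh2 (exact permutation p = 0.2, two-sided) and 0.13 for Got1 to Got2 (exact permutation p = 0.3). For Suclg2 to Sucla2, Me1 to Me2, Idh3b to Idh3g and Dlat to Pdhx it was -0.09, 0.07, -0.07 and 0.03, with two-sided exact permutation p of 0.4, 0.6, 0.5 and 0.5. Adjusted over the 12 pairs, these permutation p-values lay between 0.343 and 0.6.

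**Figure D3:**
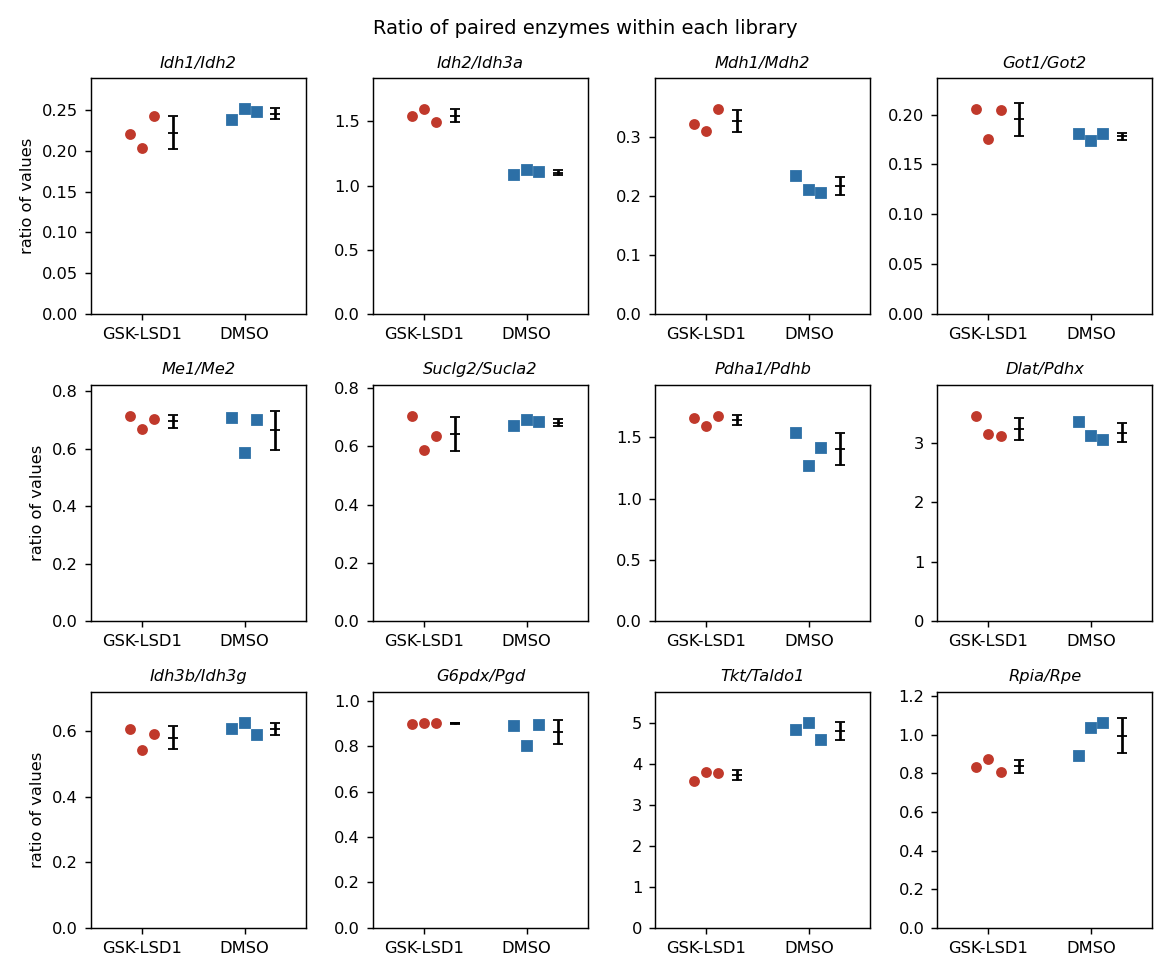
Ratio of the values of 2 enzymes within each library (vertical axis, no unit), in 12 panels, with GSK-LSD1 libraries as circles and DMSO libraries as squares. Bars give the mean ± SD of 3 libraries. The groups stand apart without overlap for Mdh1/Mdh2, which has the largest mean shift, with a mean of 0.327 with GSK-LSD1 and 0.217 with DMSO, and also for Idh2/Idh3a and Tkt/Taldo1.

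Per kilobase of exon, the enzymes spanned a wide range of levels. Tkt was highest, at 2776 ± 42.2 per kilobase with GSK-LSD1 and 3037 ± 57.7 with DMSO, followed by Mdh2 at 2317 ± 58.4 with GSK-LSD1 and 2710.1 ± 124 with DMSO. With GSK-LSD1, Taldo1 and Pgd came next. Taldo1 was at 1765 ± 80.6 per kilobase with GSK-LSD1 and 1496 ± 39.5 with DMSO, and Pgd at 1632 ± 50.3 with GSK-LSD1 and 1405 ± 84.5 with DMSO. With DMSO, Cs at 1666 ± 76.1 stood above both and Idh3g at 1448 ± 50.1 above Pgd, and with GSK-LSD1 Cs at 1523 ± 20.2 and Idh3g at 1366 ± 56.5 stood below both. The neighbours Sdhb (929 ± 39.4), Got2 (932 ± 12.8) and Glud1 (924 ± 20.8) with GSK-LSD1 lay within their spread of each other. At the low end stood Suclg2, Pdhx and Pcx, with 120.2 ± 4.17, 73.6 ± 5.17 and 4.45 ± 0.883 per kilobase with GSK-LSD1. Within the pyruvate dehydrogenase complex, the levels of Pdha1 and Pdhb with GSK-LSD1 were 657 ± 27.9 and 753 ± 33.4 per kilobase. Those of Dlat and Pdhx were 232 ± 15.1 and 73.6 ± 5.17. The lengths are unions of annotated exons and so include untranslated parts that these cells may not use, which lowers the level of genes with long alternative ends.

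**Figure D4:**
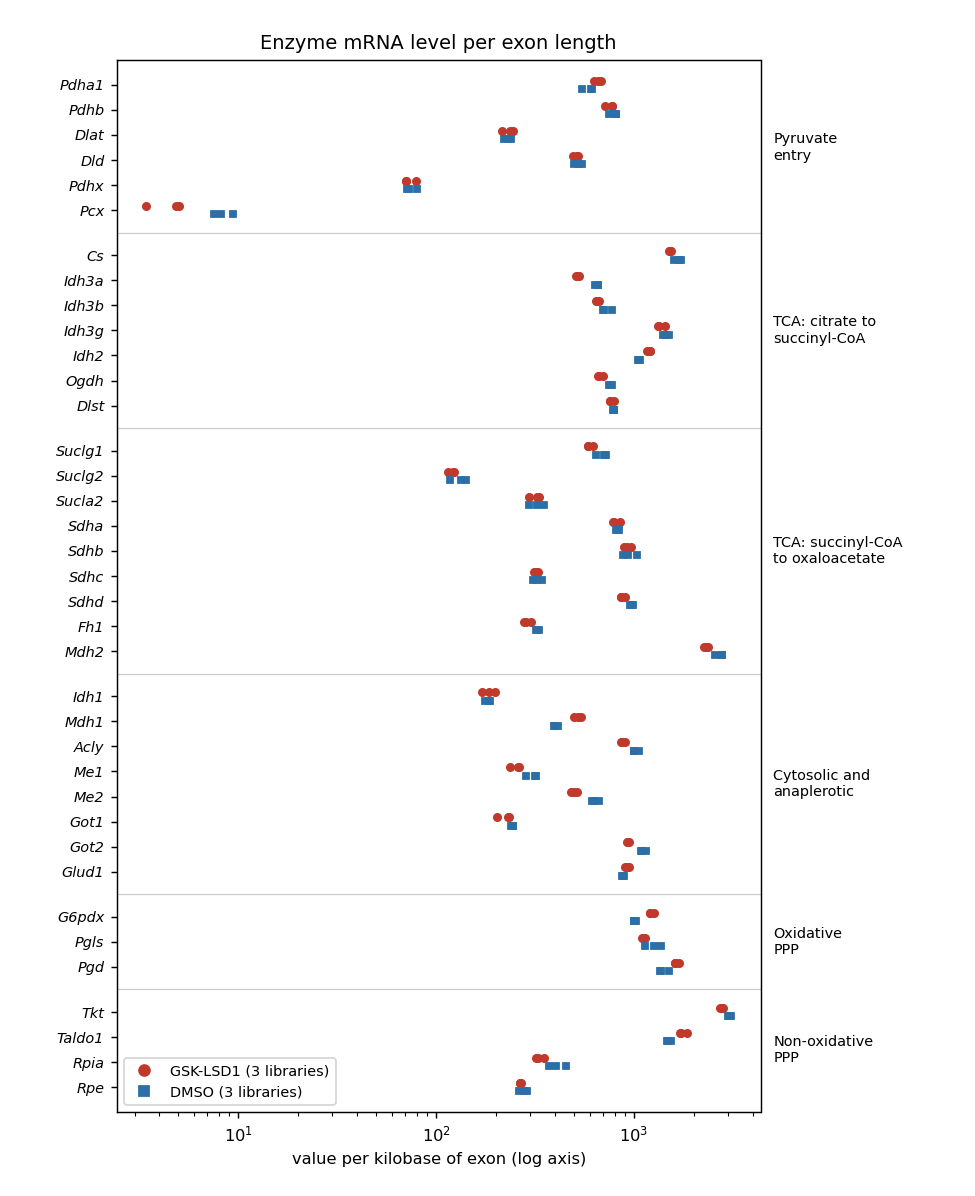
Level of each enzyme per kilobase of exon (horizontal axis, log scale) in the 3 GSK-LSD1 libraries (circles) and the 3 DMSO libraries (squares), by pathway step. Tkt and Mdh2 lie at the top, with 2776 and 2317 per kilobase with GSK-LSD1, and Pcx at the bottom with 4.45.

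Of 59 other genes of these pathways, taken as lists, 53 were tested: 12 rose, 17 fell and 24 did not pass, with a median log2 fold change of 0.02. That is 54.7% called, against 41.1% of all genes tested. Without GSK-LSD1 replicate 3 the number that fell was 10 and without DMSO replicate 2 it was 11. Genes that control pyruvate dehydrogenase changed in both directions (3 rose, 3 fell and 2 did not pass). Pdk2, a kinase that inactivates the complex, was 70.4, 75.6 and 63.3 in the GSK-LSD1 libraries, against 24.4, 19.8 and 18.9 in the DMSO libraries. It rose 3.31-fold (log2 fold change 1.69, standard error 0.198, adjusted p = 1.04e-08 by limma). Pdk1, another such kinase and a target of hypoxia-inducible factor, was 334, 313 and 317 in the GSK-LSD1 libraries, against 569, 553 and 563 in the DMSO libraries. It fell 1.75-fold, and neither gene overlapped between the groups (log2 fold change -0.81, standard error 0.0692, adjusted p = 6.05e-12 by limma). The kinase gene Pdk3 did not pass (log2 fold change -0.10). The phosphatase genes Pdp1 and Pdp2, which reactivate the complex, fell by 0.34 and 0.29 on the log2 scale, and Pdpr, which restrains the phosphatase, rose by 0.31. The gene of the mitochondrial pyruvate carrier subunit Mpc2 rose by 0.29, and its partner Mpc1 did not pass (log2 fold change 0.07).

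Of 7 genes of NADPH use and of NADPH or NADP formation, 4 rose, 2 fell and 1 did not pass. Gsr, glutathione reductase, was 1149.8, 1129 and 1083 in the GSK-LSD1 libraries, against 709, 768 and 788 in the DMSO libraries. It rose 1.48-fold without overlap (log2 fold change 0.57, standard error 0.0564, adjusted p = 1.99e-10 by limma). Nqo1, a quinone reductase, rose 1.44-fold, and Nnt, the mitochondrial transhydrogenase, 1.27-fold. Txnrd1, the cytosolic thioredoxin reductase, rose by 0.12 on the log2 scale, while its mitochondrial counterpart Txnrd2 fell by 0.28 and the mitochondrial NAD kinase gene Nadk2 by 0.23. Among 10 further genes of pentose and ribose phosphate, 2 rose, 4 fell and 4 did not pass. Tktl1, a transketolase-like gene, was 24.5, 30.02 and 31.1 in the GSK-LSD1 libraries, against 1.95, 3.96 and 4.98 in the DMSO libraries. The level was low, and the rise was 7.86-fold (log2 fold change 2.73, standard error 0.362, adjusted p = 1.33e-07 by limma). Tigar, a phosphatase that directs glucose into the pathway, rose 1.59-fold (134 ± 22.7 with GSK-LSD1 and 84.2 ± 7.52 with DMSO). Those that fell were Pgm2, which acts on ribose 1-phosphate (1.48-fold), and Prps1, Prps2 and Prpsap1 of ribose activation, with log2 fold changes of -0.15, -0.18 and -0.23.

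Among 10 other genes of the cycle, its assembly factors and side reactions, 2 rose, 3 fell and 5 did not pass. Aco1, the cytosolic aconitase, fell by 0.16 on the log2 scale. Pck2, the mitochondrial phosphoenolpyruvate carboxykinase, rose by 0.15. Ogdhl, a relative of Ogdh, rose 1.52-fold, with 76.5, 90.1 and 73 in the GSK-LSD1 libraries, against 60.5, 53.5 and 43.8 in the DMSO libraries. Sdhaf1 and Sdhaf2, assembly factors of succinate dehydrogenase, fell by 0.35 and 0.18 on the log2 scale. Of 12 genes of amino acid, propionate and acetate entry, 1 rose, 3 fell and 8 did not pass: Acss2, which makes acetyl-CoA from acetate, fell 1.69-fold and its mitochondrial relative Acss1 1.26-fold, while the alanine aminotransferase gene Gpt2 rose 1.17-fold. Of 6 genes of lipoate synthesis, 2 fell, Glrx5 and the lipoate synthase gene Lias, and 4 did not pass.

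Neighbouring pathways gave a scale for these changes. Of 19 tested glycolysis genes, 1 rose, 16 fell and 2 did not pass, with a median log2 fold change of -0.33, beside -0.08 for the 37 enzymes and -0.01 for all genes tested. The neuronal enolase gene Eno2 fell 2.99-fold (26.4 ± 6.1 with GSK-LSD1 and 78.7 ± 9.63 with DMSO). Pfkp, a phosphofructokinase, fell 1.82-fold (1355 ± 8.8 with GSK-LSD1 and 2468 ± 158 with DMSO) and the glucose carrier gene Slc2a1 1.72-fold, while the hexokinase gene Hk3 rose 2.3-fold. The enolase gene Eno1 was listed at 0 in 2 of 3 libraries of each group and was not tested. Near-identical transcripts were searched only for the 37 enzymes, so these values may not give the expression of Eno1. Of 70 nuclear-encoded genes listed as respiratory chain, 1 rose (Ndufc2, log2 fold change 0.45), 31 fell and 38 did not pass, with a median of -0.14. This list also includes the ATP synthase subunit genes and the cytochrome c gene Cycs. The largest fall was that of the cytochrome oxidase subunit gene Cox7a2 (1.38-fold). The number of respiratory chain genes that fell was 20 without GSK-LSD1 replicate 1 and without GSK-LSD1 replicate 2, and 16 without DMSO replicate 2. Of the TCA cycle enzymes alone, 1 of 16 rose and 8 fell, with a median of -0.12, and of the pentose phosphate enzymes 3 of 7 rose and 3 fell. Differences between these lists were not tested.

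**Figure D5:**
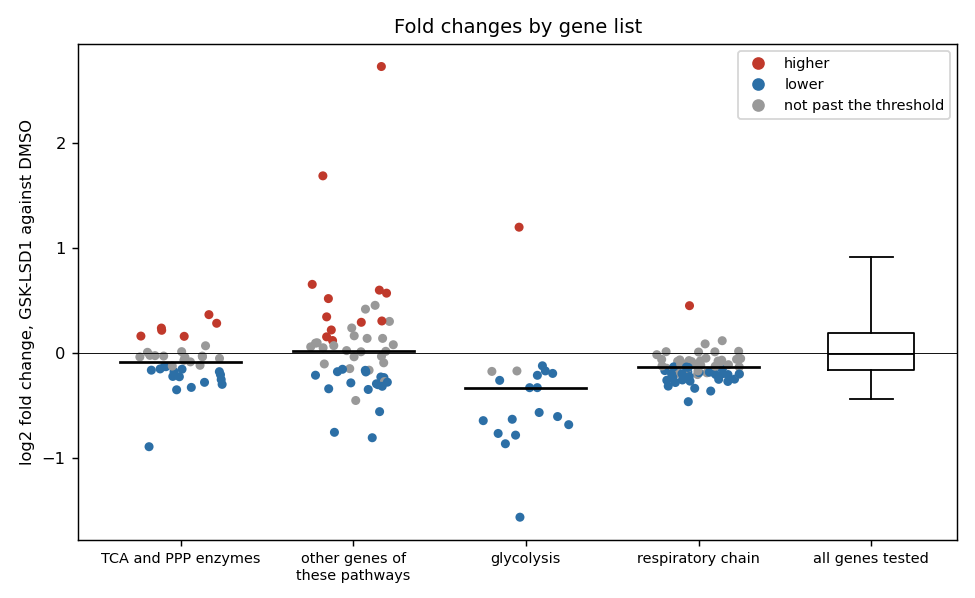
Log2 fold change (vertical axis, GSK-LSD1 against DMSO) of the tested genes of 4 lists, each point a gene, with the list median as a line. The box at the right gives the quartiles of all 11588 genes tested, with whiskers at percentiles 5 and 95. The medians are -0.08 for the 37 enzymes, 0.02 for other genes of these pathways, -0.33 for glycolysis and -0.14 for the respiratory chain list, which includes ATP synthase.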

How the data were processed

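The deposited table gives 1 normalised signal per gene symbol and library. By its values the authors divided gene read counts by 1 factor per library: every value is a whole multiple (within 0.02) of the library's smallest, which was 0.973 to 1.04. Per the submitters' processing notes, the authors' tools and builds include STAR, DESeq2, mm10 and GRCm38, with no version, role or order. Nothing on the read counter, its strand setting or filters is given in the sources used here. Of 15035 genes, 11588 had a value of at least 10 in at least 3 libraries. These were log2-transformed after adding 1 and tested with limma 3.58.1 under R 4.3.3, two-sided, with a trended prior variance and Benjamini-Hochberg adjustment over all of them. Fold changes on this scale understate low genes. A count model was not used, because the smallest value of 2 libraries was too near 1 for the criterion set for whole reads. The enzymes and lists were chosen with earlier results of these data known. All 37 enzymes are described. From other lists the rule took up to 4 genes per direction with the largest change past the threshold, and further genes of these lists were named after their values were seen. Not every gene of these lists is reported here. Coordinates and exon lengths are from GENCODE (GRCm38) and upstream sequences from RefSeq (GRCm38.p6). Near-identical transcripts of other genes were searched with blastn 2.17.0 for the 37 enzymes only (at least 95% identity over at least 200 bases). Libraries of 1 group differed by more than sampling noise. Same-numbered libraries were not treated as paired in the main fit.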

Additional observations from a re-analysis of the deposited data

How the results depend on the processing

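With pseudocounts of 0.5 and 5, without the filter on low values, with trimmed-mean rescaling and with the replicate block, 6 enzymes rose and 16 fell, as in the values above. With quantile scaling 6 rose and 13 fell, and at a mean value of at least 50, which leaves out Pcx, 6 rose and 15 fell. Leaving out 1 library at a time gave 5 to 6 higher and 11 to 17 lower. No called enzyme changed direction in any of these. Enzymes that were not called did: over the libraries left out, the log2 fold change ranged over -0.0307 to 0.0605 for Dlat, -0.0817 to 0.0295 for Pdhx, -0.0906 to 0.0299 for Sucla2, -0.0792 to 0.0363 for Sdhb, -0.0582 to 0.0172 for Sdhc and -0.0349 to 0.0679 for Idh1. Leaving out 1 library also gave 10 to 15 for the other pathway genes that fell, 16 to 33 for respiratory chain genes that fell and 1 to 2 for those that rose. The number of glycolysis genes that rose was 2 without the filter on low values. The median of the steps from citrate to succinyl-CoA was -0.0762 with quantile scaling and -0.14 to -0.10 with 1 library left out. For the steps from succinyl-CoA it was -0.168 to -0.0582 and for cytosolic and anaplerotic enzymes -0.20 to -0.14, each with 1 library left out, and for the non-oxidative pentose phosphate branch it was -0.067 with quantile scaling. The pair shift ranged over -0.0166 to 0.118 for Me1 to Me2 and -0.0146 to 0.0719 for Dlat to Pdhx. The cause of these shifts was not tested. Same-numbered libraries did not deviate together: the correlation of their deviations from the group means was -0.0276 to -0.00771 over the 3 pairs. With the replicate block 2345 genes rose and 2316 fell, and the log2 fold changes of the enzymes are the same by construction. Quantile scaling moved the median of all genes tested to -0.046. Of the 37 enzymes, Pcx had the lowest values, at 14.6 to 39.8 per library, and Tktl1, outside them, was at 1.95 to 4.98 in the DMSO libraries.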
